A study of Mus musculus with 8 samples.

Results

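The genes described here make and load major histocompatibility complex (MHC) class I molecules: the light chain B2m, the heavy chains H2-K1 and H2-D1, the peptide transporter subunits Tap1 and Tap2, the loading factor Tapbp, the inducible proteasome subunits Psmb8, Psmb9 and Psmb10, and Nlrc5, a transcriptional regulator of the pathway. They were taken by symbol from the deposited expression tables, and all 10 were found among the 16333 genes listed. The RNA came from whole pancreatic islets of 2 wild-type mice and 2 NFATc2βKO mice, in which Nfatc2, a calcium-activated transcription factor, was deleted with tamoxifen in adult insulin-expressing cells. The labels give an Agouti/C57BL6 background for both genotypes, and the growth protocol gives C57BL/6 mice besides the transgenic line. Whether the wild-type mice carried the Cre transgene or received tamoxifen, and the ages of the animals, are not stated in the labels. Islets were kept overnight in 5.5 mM glucose, and those of each mouse were then either left untreated for 2 h or given a cytokine cocktail in 11 mM glucose for 2 h. Each mL of cocktail held 50 ng of IFNγ, 10 ng of TNFα and 5 ng of IL1β. This gave 8 libraries in 4 groups of 2. The glucose of untreated islets during the 2 h is not stated in the labels, so cytokines and raised glucose cannot be told apart. Only group means were deposited. Whole reads per library were recovered from them for 99.9% of genes, and Y-linked genes placed 1 female and 1 male mouse in each group.

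MHC class I molecules carry peptides of cytosolic proteins to the cell surface for inspection by CD8 T cells. Proteasomes cut the peptides, the TAP transporter pumps them into the endoplasmic reticulum, and tapasin (Tapbp) holds empty heavy chain and B2m next to the transporter until a peptide fits. Interferon gamma acts on these genes through factors that include IRF1, and NLRC5, itself interferon-inducible, binds their promoters through RFX, CREB/ATF and NF-Y proteins on neighbouring boxes. High class I expression on beta cells is a known feature of islets in autoimmune diabetes.

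Promoter sequence is shown for the light chain, both heavy chains and Tap1, because these genes share an activator. Whether their responses below differ from one another was not tested. RefSeq (GRCm38.p6) gave promoters for 8 of the 10 genes. Each line has the 200 bases before the RefSeq transcription start, 5′ to 3′ on the strand of the gene. They lie at chr2:122147487-122147686 on the plus strand for B2m, chr17:34000348-34000547 on the minus strand for H2-K1, chr17:35262894-35263093 on the plus strand for H2-D1 and chr17:34187356-34187555 on the plus strand for Tap1. Capitals mark matches on either strand to the kappa B motif, to the interferon regulatory factor core AANNGAAA, to TGACG, the core of the box bound by CREB/ATF proteins, and to CCAAT, the NF-Y box, which reads ATTGG in reverse.
B2m: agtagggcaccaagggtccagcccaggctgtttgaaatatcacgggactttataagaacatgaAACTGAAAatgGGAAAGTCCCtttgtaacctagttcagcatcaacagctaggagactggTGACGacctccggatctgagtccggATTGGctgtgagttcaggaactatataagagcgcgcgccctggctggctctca
H2-K1: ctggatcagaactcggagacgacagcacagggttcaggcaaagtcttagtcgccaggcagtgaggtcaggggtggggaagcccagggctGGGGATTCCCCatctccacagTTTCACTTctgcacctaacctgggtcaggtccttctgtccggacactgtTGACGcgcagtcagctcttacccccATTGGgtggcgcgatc
H2-D1: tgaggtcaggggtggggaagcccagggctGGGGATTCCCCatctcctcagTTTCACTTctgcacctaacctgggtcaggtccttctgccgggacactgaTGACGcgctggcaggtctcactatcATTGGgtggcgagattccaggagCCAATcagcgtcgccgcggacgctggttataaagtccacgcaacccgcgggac
Tap1: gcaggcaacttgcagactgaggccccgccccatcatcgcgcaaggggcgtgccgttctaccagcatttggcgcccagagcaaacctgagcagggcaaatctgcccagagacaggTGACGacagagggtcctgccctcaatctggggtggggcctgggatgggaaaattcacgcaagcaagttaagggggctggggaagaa

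B2m, H2-K1 and H2-D1 each held a kappa B match, an interferon regulatory factor core, and TGACG followed on the same strand by ATTGG with 20 bases between them. Of 32851 RefSeq mouse promoters of this length, 3.18% held the kappa B motif, 17% the interferon regulatory factor core, 15.7% TGACG and 29.3% CCAAT, and the overlapping palindromic kappa B matches of the heavy chains were counted once per promoter. The TGACG and ATTGG pair with 20 bases between was found in 0.0822% of them, and with 10 to 30 bases between in 0.606%. Both shares include B2m, H2-K1 and H2-D1 themselves. The 20-base spacing is the one these genes hold, and the H2-K1 and H2-D1 windows are alike in sequence, so the shares are descriptive. The Tap1 window held TGACG alone. Tap1 and Psmb9 start 226 bases apart on opposite strands, so the Tap1 window is also upstream of Psmb9, whose own window held TGACG and CCAAT without the pairing. The Psmb8 window held a gamma-activated site (TTCNNNGAA, in 5.49% of promoters), and those of Tapbp and Psmb10 held at most a CCAAT match. These matches describe letters in the windows and say nothing of binding in islets.

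On GRCm38, 7 of the 10 genes lie in the MHC on chromosome 17. Tapbp (17:33915899-33929292) and H2-K1 (17:33996017-34000347) are followed by the block of Psmb9 (17:34181987-34187764), Tap1 (17:34187553-34197225), Psmb8 (17:34197721-34201454) and Tap2 (17:34203527-34216321), and then by H2-D1 (17:35262730-35267499). B2m lies on chromosome 2 (2:122147686-122153083), and Nlrc5 (8:94434356-94527272) and Psmb10 (8:105935735-105938444) lie on chromosome 8. All are protein-coding genes. Of the possible 50-base stretches of their exons, none of B2m or Psmb10 occurred in another gene, but 9.63% of those of H2-K1 and 12.8% of those of H2-D1 did, mostly in other class I heavy chain genes. Tapbp shared 23.2% with other genes, among them Gm19412, AC122861.4 and Zbtb22. Gm19412 overlaps Tapbp on the opposite strand and Zbtb22 overlaps it on the same strand. Tap1 and Psmb9 overlap one another by 212 bases on opposite strands, and shared 3.33% and 4.19% with other genes. No source used here says whether reads were counted by strand. The Tapbp, Tap2, Psmb8, Tap1 and Psmb9 counts are therefore less certain.

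The libraries held 14508019 to 26773570 reads on the 16316 genes with recovered reads, which leave out Ins1, Ins2, Iapp and Gcg. Nfatc2, the deleted gene, had deposited mean normalized counts of 1005 and 943 in untreated and cytokine-treated KO islets and of 1413 and 1395 in the wild-type groups. The authors' deposited tables give log2 differences of -0.49 (FDR = 0.903) and -0.56 (FDR = 0.474), so the lower level in the KO groups did not pass an FDR of 0.05. Ins2 alone held 4.06% of all normalized counts and Gcg 0.858%, as the islet label says. Every KO library had more leukocyte marker RNA (5 genes summed, 755 to 2088 normalized counts) than every wild-type library (412 to 512), and every one had less endothelial marker RNA (10 genes, 4977 to 6483 against 7870 to 10557).

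Transcripts of the class I molecule itself were abundant in all islets, and those of its regulator were scarce. Levels per kilobase of exon are compared here as the mean of the 8 libraries. The length is the union of all annotated exons of a gene, which can exceed that of its main transcript. H2-K1 had 2327 normalized counts per kb, B2m 2123 and H2-D1 1994, and the ranges of neighbours in this order overlapped. Tapbp followed at 1182 and was apart from H2-D1 above and Tap2 below. Tap2 had 222 and Psmb10 185, with overlapping ranges, and Psmb8 (93.1) and Tap1 (67.0) overlapped one another in turn. Psmb9 had 38.8 normalized counts per kb and Nlrc5 22.3, again overlapping.

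The inducible proteasome subunits were below the constitutive ones they replace. Psmb8 stood at 13.5% to 20.4% of the per-kb level of Psmb5 (median 16.9%) and Psmb9 at 3.95% to 6.41% of that of Psmb6 (median 5.34%). Psmb10 came closest to its counterpart on this scale, at 30.02% to 49.5% of Psmb7 (median 36.6%). Lengths were 3.381 kb for Psmb8 and 0.899 kb for Psmb5, and 3.66 kb for Psmb9 and 1.872 kb for Psmb6. Those of Psmb10 and Psmb7 were 1.705 and 3.421 kb. The ratios and the order of the pairs depend on these lengths, and without the division Psmb8 was closest to its counterpart. The 3 constitutive subunits had pooled log2 differences with cytokines of -0.13 (Psmb5, SE 0.13), -0.0077 (Psmb6, SE 0.087) and 0.05 (Psmb7, SE 0.091), none past the threshold.

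**Figure D1:**
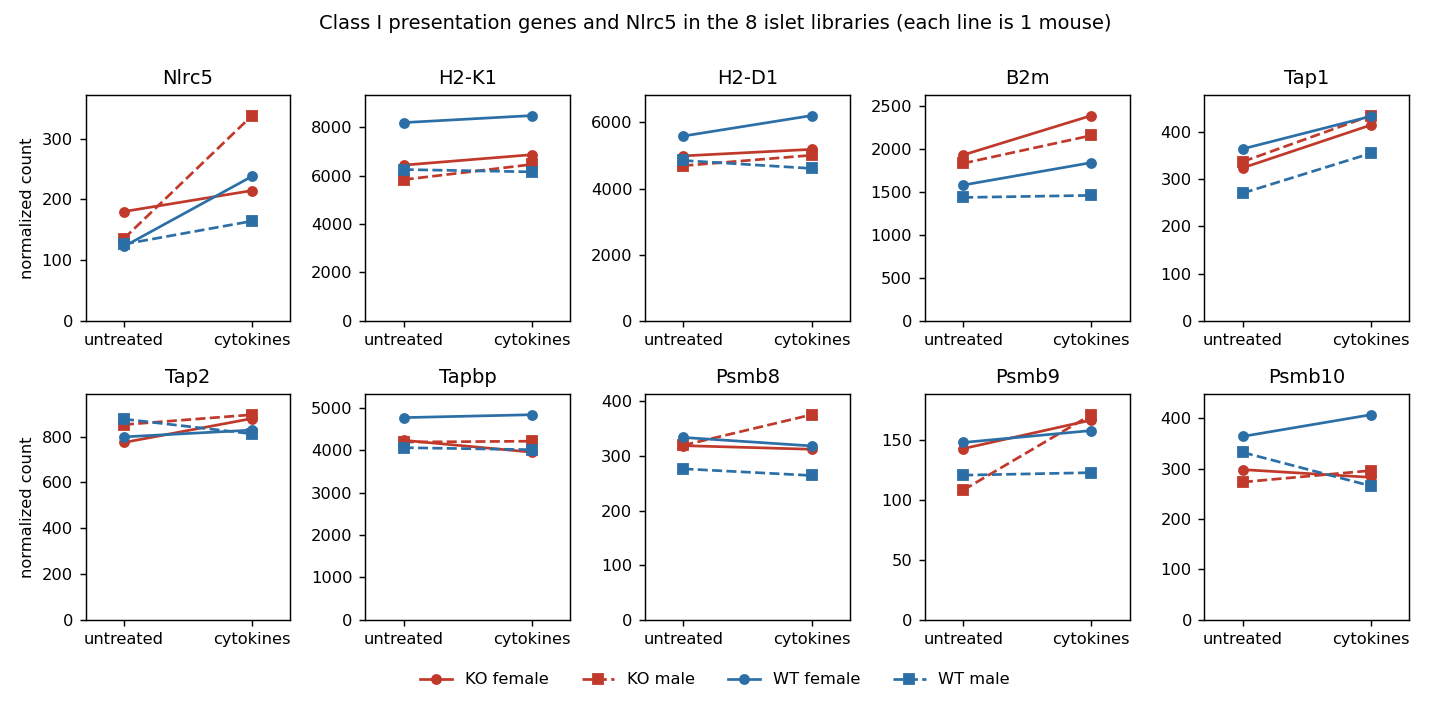
Normalized counts of the 10 genes in each of the 8 libraries (vertical axis from 0, a scale per gene), untreated on the left and with cytokines on the right. Each line joins the 2 libraries of 1 mouse, red for KO, blue for wild type, solid for females and dashed for males. Nlrc5, Tap1, B2m and Psmb9 end higher than they start in all 4 mice, and H2-K1, H2-D1, Tapbp and Psmb10 are highest in the wild-type female.

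The first question was how these genes stood after 2 h of cytokines. Nlrc5, Tap1, B2m and Psmb9 were higher with cytokines in each of the 4 mice, by a pooled 1.66-fold for Nlrc5, 1.27-fold for Tap1, 1.15-fold for B2m and 1.19-fold for Psmb9, and the other 6 genes differed by less than 1.05-fold. Of all genes, 12.4% were higher in each of the 4 mice. None of the 10 passed an FDR of 0.05 in the deposited comparisons or in their weighted mean. Tap1 rose in the fit that pairs the libraries of each mouse, which changes the call.

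Nlrc5, the regulator, had normalized counts of 180 in the untreated KO female, 135 in the KO male, 122 in the wild-type female and 126 in the wild-type male. With cytokines the counts were 214, 338, 238 and 164 in the same order. In each genotype both cytokine libraries lay above both untreated ones, but the wild-type male with cytokines lay below the untreated KO female. The log2 difference within a mouse was 0.25 in the KO female, 1.32 in the KO male, 0.96 in the wild-type female and 0.38 in the wild-type male, with counting errors of 0.13 to 0.18. The spread over mice was therefore several times the counting error, and the largest value came from the KO male.

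The authors' deposited tables give Nlrc5 a log2 fold change of 0.78 (SE 0.36, p = 0.0306) in KO islets and 0.67 (SE 0.37, p = 0.0682) in wild-type islets. The weighted mean of both was 0.73 (SE 0.26, 95% interval 0.22 to 1.24). It ranked 62 of 16333 genes by p and did not pass Benjamini-Hochberg adjustment over all genes. With the mouse as a block, limma gave 0.79 (SE 0.17) with an adjusted p of 0.0668. Leukocyte markers moved in part with it. The marker sum went from 1040 to 1563 in the KO female and from 755 to 2088 in the KO male, but from 412 to 501 in the wild-type female, where Nlrc5 was 1.94-fold higher, and from 512 to 477 in the wild-type male. In RNA of whole islets, the number of cells of a type and the RNA per cell cannot be told apart, and the part of leukocytes in the Nlrc5 values of the KO mice was not tested.

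Tap1, a subunit of the transporter, was higher by a similar amount in every mouse. Its normalized counts were 324 in the KO female, 337 in the KO male, 364 in the wild-type female and 270 in the wild-type male untreated, and 415, 435, 433 and 355 with cytokines. Only the wild-type male with cytokines lay below an untreated library, the wild-type female's. The log2 difference was 0.36, 0.37, 0.25 and 0.39 in the 4 mice, a narrow range beside counting errors of 0.093 to 0.12. The weighted mean was 0.34 (SE 0.15), which ranked 183 by p and did not pass adjustment.

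With the mouse as a block, limma gave Tap1 0.34 (SE 0.059) and an adjusted p of 0.0363, a call in a fit where 1.13% of genes were called. The call depended on which mice entered. Without the wild-type female the adjusted p was 0.0413, and without the KO female, the KO male or the wild-type male it was 0.132, 0.139 and 0.107, with estimates of 0.33 to 0.37 throughout.

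Psmb9, the proteasome subunit that shares its promoter region with Tap1, had normalized counts of 142 (KO female), 108 (KO male), 148 (wild-type female) and 120 (wild-type male) untreated and of 166, 171, 157 and 122 with cytokines. The KO libraries separated by treatment and the wild-type libraries overlapped. The log2 difference was 0.22 and 0.66 in the 2 KO animals and 0.094 and 0.025 in the wild-type animals, where it was below the counting error of 0.18. Its weighted mean was 0.25 (SE 0.24, 95% interval -0.22 to 0.71).

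B2m, the chain common to all class I molecules, had normalized counts of 1928 and 1831 in the untreated KO female and male and 2386 and 2155 with cytokines. In wild-type islets it had 1578 and 1434 untreated and 1839 and 1458 with cytokines. The KO groups did not overlap, and the wild-type male stayed within its counting error of 0.053, at a log2 difference of 0.024. The other 3 mice gave 0.31, 0.24 and 0.22. The weighted mean was 0.20 (SE 0.12, 95% interval -0.035 to 0.44), and the blocked fit gave 0.20 (SE 0.048) with an adjusted p of 0.0829.

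The classical heavy chains were nearly level. H2-K1 had normalized counts of 6435 and 5833 in the untreated KO female and male, 6866 and 6463 with cytokines, 8194 and 6252 in the untreated wild-type female and male and 8484 and 6156 with cytokines. The KO groups separated narrowly, at 1.07-fold and 1.11-fold within the 2 mice, and the wild-type groups overlapped because the female was far above the male under both treatments. The weighted mean was 0.068 (SE 0.14), with a 95% interval of -0.20 to 0.34. H2-D1, between 4609 and 6209 in all libraries, had 0.060 (SE 0.12, interval -0.17 to 0.29). A log2 increase above 0.34 lay outside both intervals.

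The rest of the loading machinery showed no common direction. Tap2, the partner subunit of Tap1, ranged from 774 to 896 normalized counts, with a weighted mean of 0.048 (SE 0.11, interval -0.17 to 0.26) against the 0.34 of Tap1. Tapbp ranged from 3959 to 4844 and gave -0.023 (SE 0.090). Psmb8 ranged from 264 to 375 and gave 0.019 (SE 0.15), with the KO male at 0.23 and the other 3 mice at -0.030 to -0.068. Psmb10 ranged from 266 to 407 and gave -0.026 (SE 0.19), with values of 0.16 in the wild-type female and -0.32 in the wild-type male.

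Counted over the 10 genes, 9 had a positive log2 fold change in KO islets and 7 in wild-type islets by the authors' deposited tables, with medians of 0.12 and 0.032, beside medians over all genes of 0.00058 and 0.0028. Calls at an FDR of 0.05 were made for 0.0429% of genes in KO islets and 0.0122% in wild-type islets, and none was one of the 10. Of the weighted means, 8 were positive with a median of 0.064, and 0.104% of all genes were called, again none of the 10. Blocked by mouse within a genotype, limma called 0.343% of genes in KO islets and 0.172% in wild-type islets, none of the 10. The cytokine libraries lay wholly above the untreated ones for 7 of the 10 in KO islets (Nlrc5, H2-K1, H2-D1, B2m, Tap1, Tap2 and Psmb9; 15.3% of all genes) and for Nlrc5 alone in wild-type islets (11.4% of all genes). By mouse, 10 were higher with cytokines in the KO male, 9 in the wild-type female, 7 in the KO female and 4 in the wild-type male, beside 48.2%, 48.8%, 51.4% and 52.1% of all genes.

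**Figure D2:**
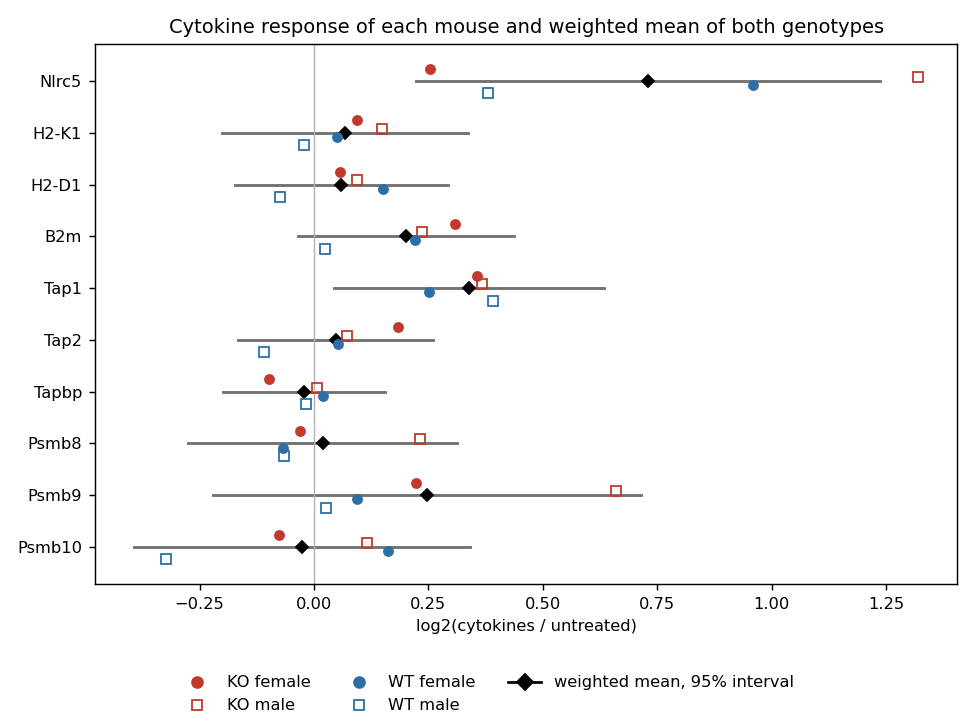
Log2 ratio of cytokine-treated to untreated normalized counts for each of the 10 genes (horizontal axis), with 1 symbol per mouse and the weighted mean of the 2 genotypes as a black diamond with its 95% interval. The intervals of Nlrc5 (0.22 to 1.24) and Tap1 (0.045 to 0.63) lie above 0 before adjustment for the number of genes, and the 4 mice lie close together for Tap1 (0.25 to 0.39) and far apart for Nlrc5 (0.25 to 1.32).

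The interferon gamma pathway was described by a list of receptor, kinase and factor genes that also holds its inhibitors Socs1 and Ptpn2. All 10 measured genes of the interferon gamma input list were positive, beside 51.2% of all genes, with a median weighted mean of 0.17, and none passed. Irf1, a factor that binds class I promoters, had 0.29 (SE 0.15). In the limma fit blocked by mouse, Irf1 passed with an adjusted p of 0.0143, and it was higher by 0.25 to 0.34 in the 4 mice. Socs1, a feedback inhibitor of the pathway, had 0.31 (SE 0.53), with values from -0.77 to 1.22 in the 4 mice. The interferon-induced chemokine Cxcl10 gave a far larger value in the same libraries, a weighted mean of 2.45 (SE 0.35) with an adjusted p of 5.9e-08.

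The factors with which NLRC5 acts gave mixed values. Of 8 RFX, NF-Y and CREB/ATF genes, 4 were positive, with a median of -0.0058. Rfx5, a DNA-binding subunit of RFX, had 0.17 (SE 0.092), and Nfyb, an NF-Y subunit, 0.29 (SE 0.12), the latter called in the limma fit blocked by mouse with an adjusted p of 0.0422.

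Of the further class I heavy chains, 10 of 20 listed genes were measured, 6 were positive, the median was 0.044 and none passed. The smallest p was that of H2-Q6 at 0.57 (SE 0.30), and H2-Q7 had 0.53 (SE 0.40). Both genes share exon sequence with H2-D1. H2-Q7 is also among the genes that share most with H2-K1, and genes sharing less were not listed. H2-Q4 had 0.17 (SE 0.18), H2-T23 -0.019 (SE 0.14) and H2-M3 -0.041 (SE 0.15). Peptide loading and trimming genes (7 measured, 3 positive, median -0.024), the constitutive proteasome (15 measured, 2 positive, median -0.025) and the PA28 activator (3 measured, 2 positive, median 0.0088) had no gene called. Of PA28, Psme1 had 0.0088 (SE 0.13) and Psme2 0.11 (SE 0.10). The 2 h time point was the only one measured.

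The design also asks whether the cytokine response depends on the genotype. The difference between the responses, KO minus wild type, was -0.05 to 0.36 for the 10 genes and passed for none of them, nor for any of the 16333 genes, while 0.22% of genes had an unadjusted p under 0.05. Psmb9 had the largest difference, 0.36 (SE 0.48, 95% interval -0.57 to 1.30). B2m had 0.15 (SE 0.24), with an interval of -0.33 to 0.62, and Nlrc5 had 0.11 (SE 0.52), with an interval of -0.91 to 1.12. These intervals are wide. They come from 2 mice each and from the deposited standard errors, for which no pairing by mouse is known. A modest dependence on genotype was not detectable with them. The blocked limma fit called 0 genes as well, with 4.39% at an unadjusted p under 0.05.

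KO and wild-type islets were then compared under the same treatment. B2m was the gene of the 10 that differed most clearly: it was higher in both KO mice than in both wild-type mice, untreated and with cytokines. For the heavy chains, transporter, tapasin and proteasome subunits, every deposited 95% interval of the difference held 0. Untreated, 0.41% of all genes were called, and with cytokines 0.998%, none of them one of the 10 in the authors' deposited tables.

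For B2m the KO to wild-type log2 ratio was 0.29 between the females and 0.35 between the males untreated, and 0.38 and 0.56 with cytokines. In the authors' deposited table of untreated islets it had 0.32 (SE 0.16) at an FDR of 0.941. In the authors' deposited table of cytokine-treated islets it had 0.46 (SE 0.16), a 1.38-fold difference, at an FDR of 0.168. Leaving out 1 mouse at a time, limma gave 0.30 (without the wild-type male) to 0.63 (without the wild-type female). Blocked by sex, limma called the difference with cytokines, 0.47 (SE 0.083) with an adjusted p of 0.0281, where 3.59% of all genes were called. It did not call the untreated one, 0.32 (SE 0.084) with an adjusted p of 0.129, where 1.69% were called. This fit puts both libraries of a mouse into 1 estimate of spread, so its genotype p-values are too small. Libraries separated the genotypes for 18.6% of all genes untreated (KO higher) and for 14.7% with cytokines, so separation alone is common here.

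Markers of immune cells were higher in the same libraries. With cytokines, all 5 leukocyte markers were called higher in KO islets, with a median log2 difference of 1.94, and Ptprc, the leukocyte phosphatase CD45, was at 742 and 1089 normalized counts in the KO mice against 151 and 188 in the wild-type mice (log2 difference 2.43 at an FDR of 8.4e-11 in the authors' deposited table). Macrophage markers (10 genes) summed to 3810 and 3814 against 2179 and 2643. Of these, 9 were positive, 1 was negative and 1 was called in the authors' deposited table. Class II genes (6 measured) summed to 2327 and 2360 against 1130 and 1532, with Cd74, the class II invariant chain, at 0.81 (FDR = 0.0267 in the authors' deposited table). The 4 B-cell markers summed to 260 and 364 against 24.98 and 47.5. Untreated, all 5 leukocyte markers were positive and none was called, and the sums were 1040 and 755 against 412 and 512. Endothelial markers went the other way: Pecam1 was at -0.64 (FDR = 0.0024 in the authors' deposited table). The 6 acinar markers were all positive with cytokines, with a median of 2.09. None of them was called in the authors' deposited table, and 4 were called in the fit blocked by sex. Their sum ranged from 16833 to 96599 in KO and from 3992 to 21584 in wild-type libraries. The 6 stromal markers were all positive untreated, with a median of 2.39 and 4 called in that fit, and summed to 4957 and 9538 against 1519 and 1807. The T and NK cell markers of the list were not analysed here. B2m is expressed by nearly all nucleated cells, and the part of these cells in its difference was not tested.

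The other 9 genes gave smaller or more variable differences. H2-K1 had a KO to wild-type log2 ratio of -0.24 (SE 0.19) untreated and -0.14 (SE 0.19) with cytokines in the authors' deposited tables, and H2-D1 -0.11 (SE 0.17) and -0.085 (SE 0.17). Nlrc5 had 0.34 (SE 0.34) and 0.47 (SE 0.33), with opposite signs in the 2 sexes with cytokines: -0.15 between the females and 1.04 between the males. Untreated, Nlrc5 lay higher in both KO libraries than in both wild-type ones, at 180 and 135 against 122 and 126 normalized counts. Psmb10 lay lower in both untreated KO libraries than in both wild-type ones (18.3% of all genes did), at -0.28 (SE 0.25), and Tap2 and Psmb9 lay higher with cytokines, at 0.11 (SE 0.14) and 0.27 (SE 0.29) by the authors' deposited table. Over the 10 genes, 4 were positive untreated (median -0.055) and 6 with cytokines (median 0.11).

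**Figure D3:**
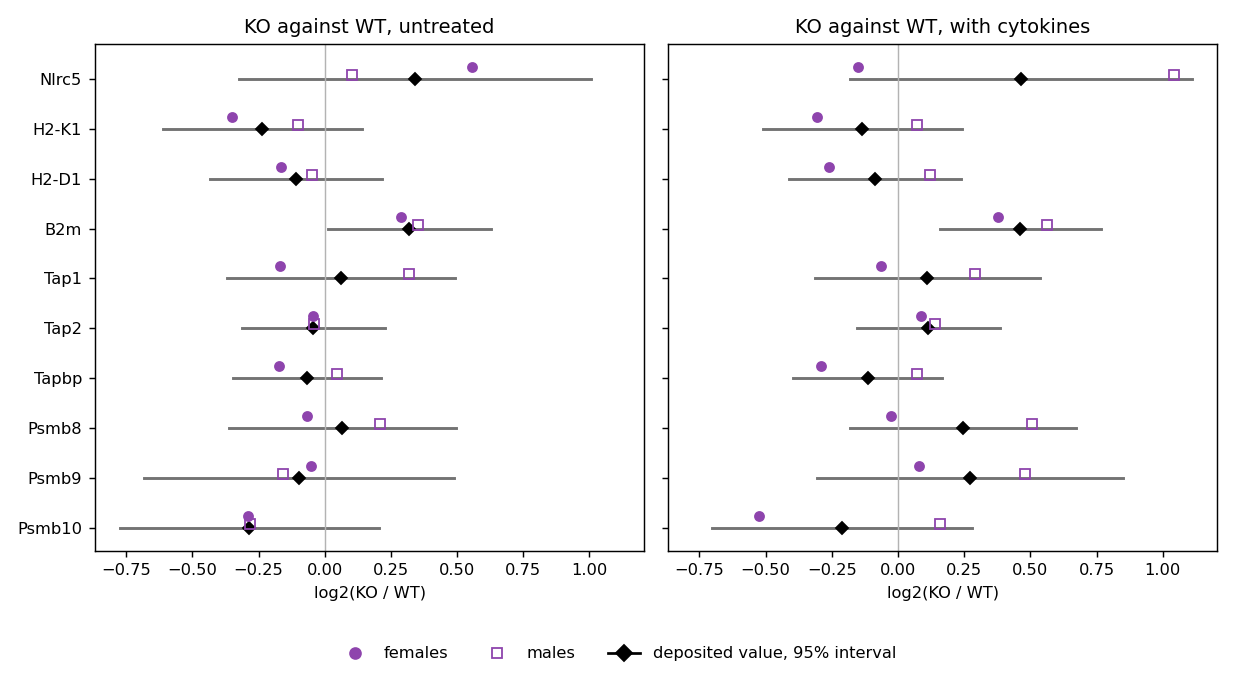
Log2 ratio of KO to wild type for each of the 10 genes (horizontal axis), untreated on the left and with cytokines on the right. Filled circles compare the females, open squares the males, and black diamonds with lines give the deposited value and its 95% interval. B2m is the gene whose circles, squares and intervals all lie above 0 in both panels, before adjustment for the number of genes.

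**Figure D4:**
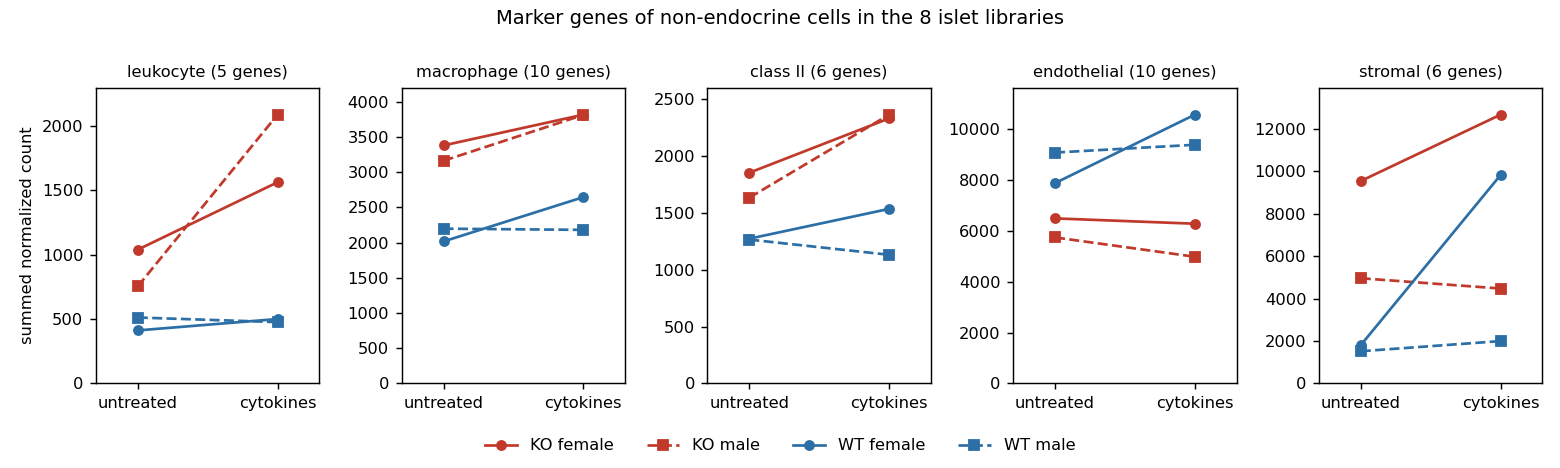
Summed normalized counts of the marker genes of leukocytes, macrophages, class II-expressing, endothelial and stromal cells in the 8 libraries (vertical axes from 0), with lines joining the 2 libraries of each mouse. KO libraries (red) lie above wild-type libraries (blue) for the first 3 lists and below them for the endothelial list, and the stromal sum of the wild-type female goes from 1807 to 9818.

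The genes also differed between single mice in a way that neither treatment nor genotype describes. Both libraries of the wild-type female were above the other 6 for H2-K1, H2-D1, Tapbp and Psmb10, 4 of the 10 genes beside 16.7% of all genes. For H2-K1 they were 8194 and 8484 normalized counts against 5833 to 6866 elsewhere. Both libraries of the wild-type male were below the other 6 for B2m and Psmb8, 2 of the 10 beside 7.94% of all genes. None of the 10 was in the other such sets. These were the KO female above (4.01% of all genes) or below (4.46%) and the KO male above (9.84%) or below (10.1%). The wild-type female below (17.5%) and the wild-type male above (9.25%) were the rest. The KO to wild-type ratio of H2-K1 with cytokines was 0.11 in limma without the wild-type female, against the -0.14 deposited, and that of H2-D1 was 0.15 against -0.085.

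Over the 8 libraries, which come from only 4 mice, the 10 genes ranged widely in how closely they followed Nlrc5. The Pearson correlation of log2 normalized counts with Nlrc5 was 0.78 for Tap1, 0.75 for Psmb9, 0.70 for B2m and 0.55 for Psmb8. It was 0.37 for Tap2, 0.26 for H2-D1, 0.13 for H2-K1, -0.0047 for Tapbp and -0.014 for Psmb10. Tap1 ranked 172 and Psmb9 228 of the 14226 genes whose mean reached 50. The 5 genes closest to Nlrc5 were Gm43430 (0.966), Pmf1 (0.959), S1pr3 (0.959), Maff (0.947) and Ppp1r16b (0.947). With 8 points that share treatment, depth and mice, and this many genes, such values are a description of these libraries.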

How the data were processed

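RNA of islets from 4 mice was extracted with Trizol and sequenced with standard Illumina libraries, per the labels' protocols. HISAT2, HTSeq, DESeq2 and build GRCm38 are named in the submitters' processing notes. The deposited files are 4 tables of 16333 genes, each with the authors' mean normalized count (a signal per gene), log2 fold change, Wald score, p-value and FDR. Group means of normalized counts are in 3 of the deposited files, and the authors' linear fold ratio is in 2. The tables name the other genotype "Mut", taken here for wild type, the only one left in the labels.

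Standard errors were the log2 fold change over the Wald score, and a call was an FDR under 0.05. The responses of both genotypes were joined by inverse-variance weighting and compared by their difference, with normal p-values and Benjamini-Hochberg adjustment over all genes. No pairing by mouse is known for the deposited tests, so these results count as unpaired. Each group mean is a sum of 2 whole read counts with fixed weights, and solving it gave reads per library for 16316 genes (17 unsettled, Ins1 and Ins2 among them). These were refitted with limma 3.58.1 (voom) in R 4.3.3, tested on simulated data. Pairing comes from the design, in which islets of each mouse were split. The difference between the female and the male correlated at 0.748 (KO) and 0.743 (wild type) between treatments over 14222 genes. A difference between the sexes would also give this correlation, so it cannot show the pairing. Genotype comparisons were blocked by sex. Labels do not say which library is which numbered replicate. With 2 mice a group, no exact permutation test can reach 0.05, and none was used. Groups of 2 give wide intervals.

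All 10 genes are printed in each comparison, other lists as counts and medians with values for fixed names. The genes and lists were chosen with earlier results of these data known. Alternatives were limma without a block, library totals, a trend fit with a pseudocount of 5, a minimum mean of 100 and leaving out each mouse. Promoters are from RefSeq (GRCm38.p6), exon lengths from GENCODE, as the union of all annotated exons of a gene. Ciita, Cxcl9 and other listed genes without a row were not analysed here, and 1 listed gene is not reported here.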

Additional observations from a re-analysis of the deposited data

How the results depend on the processing

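All counts of called genes among the 10 were 0 and stayed 0 under the filter, library totals, trend and unblocked fits and when each mouse was left out of the unblocked fit. With the replicate block by mouse, 1 of the 10 was called over both genotypes (Tap1), and leaving out each mouse in turn from that fit, an alternative chosen after seeing the data, gave 0 to 1. With the replicate block by sex, 1 was called between genotypes with cytokines (B2m, log2 0.47). The pairing changed no other call of the 10. Over all genes, the block called 56 against 7 in KO islets, 28 against 2 in wild-type islets, 185 against 17 over both, 276 against 67 between genotypes untreated and 585 against 163 with cytokines, where limma without a block called 0, 0, 0, 0 and 2.

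Of the log2 values, 585 comparisons with an alternative kept sign and call, 3 gained a call and 32 changed sign, all of them when 1 mouse was left out, and none of those was a called value. Their ranges over the mice left out, unblocked unless said, were as follows. In KO islets Tapbp gave -0.098 to 0.0069, Psmb8 -0.029 to 0.23 and Psmb10 -0.075 to 0.12. In wild-type islets H2-K1 gave -0.022 to 0.050, H2-D1 -0.073 to 0.15, Tap2 -0.11 to 0.052, Tapbp -0.017 to 0.021 and Psmb10 -0.32 to 0.16. Between genotypes untreated, Tap1 gave -0.14 to 0.29, Tap2 -0.11 to 0.027, Tapbp -0.18 to 0.053, Psmb8 -0.066 to 0.21 and Psmb9 -0.30 to 0.10. With cytokines, H2-K1 gave -0.35 to 0.11, H2-D1 -0.28 to 0.15, Tap1 -0.024 to 0.26, Tapbp -0.24 to 0.025 and Psmb10 -0.49 to 0.13. Over both genotypes, Tapbp gave -0.036 to 0.0030 (-0.034 to 0.0034 with the block), Psmb8 -0.057 to 0.070 (-0.054 to 0.071) and Psmb10 -0.094 to 0.074 (-0.084 to 0.075). For the difference of responses, Nlrc5 gave -0.39 to 0.67, H2-D1 -0.076 to 0.15, Tap1 -0.026 to 0.11, Tapbp -0.099 to 0.0058 and Psmb10 -0.13 to 0.35. The cause was not tested. Leaving out 1 mouse leaves 1 library in a group, which is assumed to vary like the others. Nlrc5 had as few as 92 reads and Psmb9 105 in a library.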
